A study of Mus musculus with 10 samples.

Results

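Fos, Fosb, Jun, Junb, Egr1, Atf3, Nr4a1, Nr4a3, Gadd45b and Ier3 were followed across all libraries as a set of immediate early and stress-response genes. They were found by symbol, and all 10 were present among the 26173 genes of the table. The values are FPKM (fragments per kilobase of transcript, scaled to the fragments of the library), summed over the transcripts of each gene. Nr4a1 had 4 transcripts and the other members had 1 each. Alveolar macrophages, the resident phagocytes of the airspace, were the source of the RNA, taken from C57BL/6 mice that the labels give as female and 16 weeks old. In the conditional line, Bach2 alleles are floxed and Cre is driven by Cd4. Cd4 is expressed by T cells, so macrophages of that line need not have lost Bach2 themselves. It gave 3 groups: controls (conditional control), knockout macrophages with the surface markers of controls (normal-marker knockout) and knockout macrophages with aberrant surface markers (aberrant-marker knockout). Whether the controls carry the Cre or the floxed alleles is not given in the labels, nor is how the macrophages were isolated or whether animals were pooled. Wild-type mice and mice with a germline deletion of Bach2 made up the remaining 2 groups. No treatment is named for any group.

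Immediate early genes are transcribed within minutes of a signal, without new protein synthesis, and most of their products are transcription factors that set off later waves of expression. Fos and Jun proteins pair through leucine zippers into the AP-1 factor, whose recognition site overlaps with the longer element bound by Bach2, a leucine zipper repressor. In macrophages these genes respond to microbial products, cytokines, cell stress and handling of the cells. The comparisons asked which members differ from the control in each knockout, and which do so in 1 knockout but not the other.

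Each group has 2 samples in the labels, but they agreed nearly within sampling noise. Pearson's r of log2(FPKM + 1) between samples of a group was 0.993 to 0.998, against 0.685 to 0.853 between groups. They were therefore counted as 1 library per group, so no test across mice was possible, and the pair of values given for each group shows the spread of sequencing alone. Approximate depth was 7.91 to 9.41 M fragments per sample, at which 1 read on a 2 kb transcript is worth 0.0531 to 0.0632 FPKM. A gene was called higher or lower when it differed by at least 4-fold on log2(FPKM + 1), for the means and for every choice of 1 sample per group, with a higher mean of at least 20 FPKM. Bach2 averaged at most 0.0571 FPKM in every library, so its level cannot check the genotypes. Although labelled female, the wild-type and germline knockout libraries held transcripts of the Y chromosome, with Eif2s3y at 60.8 and 39.9 FPKM, and the 3 conditional libraries did not. Effects of sex and line therefore cannot be told apart in any comparison that crosses the 2 lines. Of 13 alveolar macrophage markers, the chitinase-like gene Chil3 was the most abundant in every library. Without Chil3, the other 12 summed to 790 FPKM in the aberrant-marker and 1290 FPKM in the germline knockout. In the other 3 libraries that sum was 7459 to 10370 FPKM. Chil3 itself was at 46574 FPKM in the germline knockout against 9278 FPKM in the wild type. With it, the sum was 47864 FPKM in the germline knockout and 19647 FPKM in the wild type. In the aberrant-marker knockout the full sum was 9081 FPKM, against 17646 FPKM in the conditional control. Both libraries with called members were thus low in the sum of the other 12 markers. The germline knockout was not low in Chil3, nor in Itgax (365 against 289 FPKM) or Fabp4 (181 against 145 FPKM).

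Atf3, Ier3, Gadd45b and Nr4a3 were called higher in the aberrant-marker knockout than in the conditional control, and no member was called lower. Over the 11336 genes compared, 4.09% were called higher and 3.76% lower in that comparison. In the germline knockout, Atf3, Ier3 and Gadd45b were called higher than in the wild type and none lower, where 2.73% of genes were higher and 3.36% lower. No member was called in the normal-marker knockout against the conditional control, where 0.935% of genes were higher and 0.838% lower. Nr4a3 was thus the single member that passed the rule in 1 knockout and not the other. All 10 members passed the filter on low values (at least 1 FPKM in at least 2 samples), but Nr4a3 did so through the aberrant-marker and germline knockout libraries and Fosb through the aberrant-marker and wild-type libraries. The median log2 difference of the 10 members was 1.82 in the aberrant-marker, 0.34 in the normal-marker and 1.28 in the germline knockout. The median of all compared genes was within 0.01 of 0 in each. In the aberrant-marker library, the summed level of 15 dendritic cell markers was 6017 FPKM, against 35.9 FPKM in the conditional control, and its part in the members' differences was not tested. In bulk libraries, a change in the share of a cell type cannot be told apart from a change in RNA per cell.

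**Figure D1:**
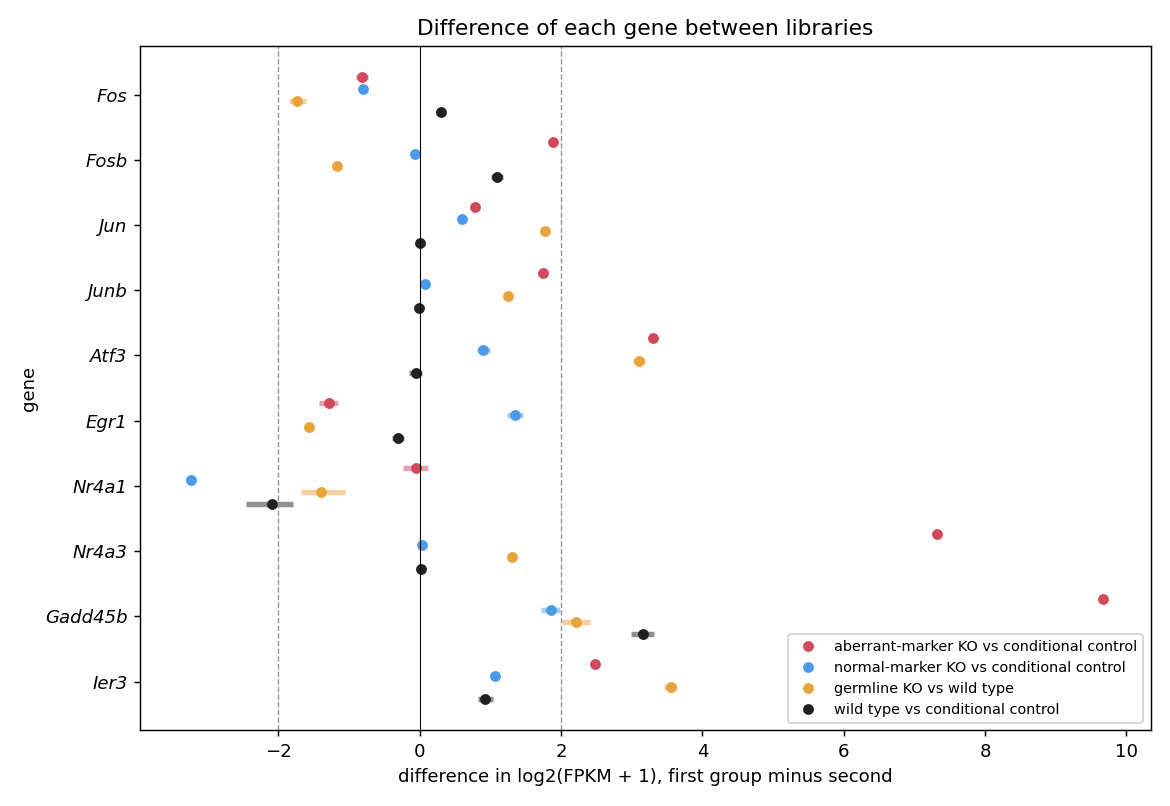
Difference in log2(FPKM + 1) (x axis, first group minus second) for each of the 10 members (y axis) in 4 comparisons; points are differences of means, horizontal bars the range over the choices of 1 sample per group, and dashed lines mark 4-fold. Gadd45b (9.68) and Nr4a3 (7.32) lie furthest out in the aberrant-marker knockout, and Ier3 (3.55) and Atf3 (3.10) in the germline knockout.

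Nr4a3 encodes an orphan nuclear receptor that works without a known ligand and is set by its own rate of transcription. It stood at 160 and 158 FPKM in the aberrant-marker samples. In the germline knockout it was at 1.55 and 1.43 FPKM, and in the normal-marker knockout at 0.0201 and 0.0207 FPKM. It was listed at 0 in both conditional control samples and at 0 and 0.0222 FPKM in the wild-type samples. The aberrant-marker library was far above all others, the germline knockout came next, and the remaining 3 libraries were at or near 0 and not apart. The log2 difference was 7.32 for aberrant-marker macrophages and 1.30 for those of the germline knockout, so the 2 effects differed by 6.02 log2 units, a difference that could not be tested with 1 library per group. No fold is given for Nr4a3 because its controls were at or near 0.

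Gadd45b encodes a small protein that binds kinases of the p38 and JNK stress pathways and is induced by NF-kB. It was at 826 and 808 FPKM in the aberrant-marker samples, and at 2.28 and 2.97 FPKM in the normal-marker samples, also from conditional knockout mice. Both conditional control samples were listed at 0, and whether the transcript was missed in that library was not tested. The germline knockout samples held 39.2 and 41.4 FPKM and the wild-type samples 6.95 and 8.95 FPKM. No groups overlapped. In the aberrant-marker library Gadd45b lay at percentile 99.0 of the compared genes. The germline knockout was 5.07-fold above the wild type, with a log2 difference of 2.21. That call was narrow: the difference was 2.02 to 2.41 over the choices of sample, and the call was lost when the columns were scaled to equal FPKM totals. Gadd45b also differed between the 2 control libraries (0 against 7.95 FPKM), by 3.16 log2 units under the floor of 20 FPKM.

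Atf3 encodes a leucine zipper factor of stress responses that can pair with Jun proteins and often represses inflammatory genes. It was at 131 and 132 FPKM in the aberrant-marker samples and at 110.2 and 109 FPKM in the germline knockout samples. The normal-marker samples held 25.2 and 22.8 FPKM. Both control libraries were low and overlapped, with 12.2 and 12.6 FPKM in the conditional control and 11.2 and 12.5 FPKM in the wild type. Atf3 was 10.6-fold higher in the aberrant-marker and 9.24-fold higher in the germline knockout, each against its own control, and the 2 effects were 0.20 log2 units apart.

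Ier3 encodes a short-lived protein induced by NF-kB that limits cell death. It had its highest level in the germline knockout, at 324 and 323 FPKM, followed by the aberrant-marker samples at 80.3 and 79.2 FPKM. The normal-marker samples (28.7 and 30.0 FPKM) and the wild-type samples (28.3 and 25.0 FPKM) lay next to each other, and the conditional control was lowest at 13.7 and 13.4 FPKM. All 5 groups were apart in Ier3, the normal-marker knockout and the wild type by the smallest margin. Ier3 was 12.1-fold higher in the germline and 5.89-fold higher in the aberrant-marker knockout than in its own control. The aberrant-marker call depended on the control: against the wild type the ratio was 2.99-fold and Ier3 was not called, whereas the other 3 calls remained.

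**Figure D2:**
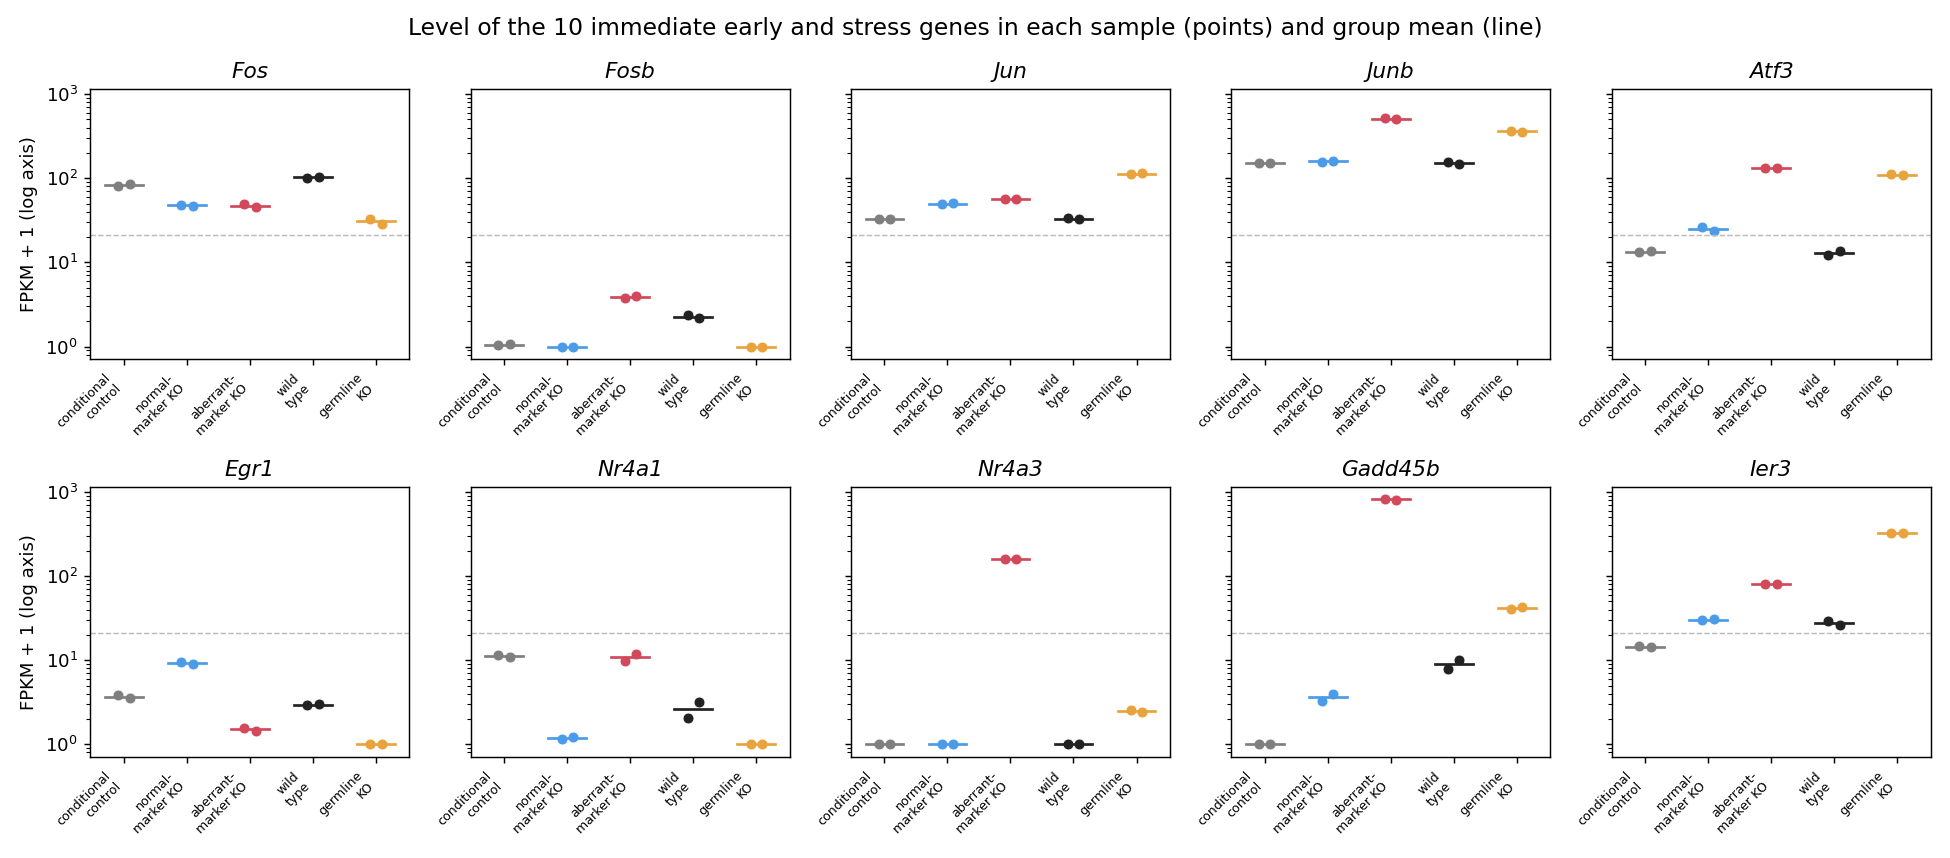
FPKM of the 10 members in each of the 10 samples, on a log axis of FPKM + 1; points are samples, lines are group means, and the dashed line marks the floor of 20 FPKM. The 2 samples of each library nearly coincide, Nr4a3 and Gadd45b stand high in the aberrant-marker samples, and Ier3 and Jun are highest in the germline knockout samples.

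The sequences just before the transcription start are shown for the 4 called genes and for Nr4a1, the relative of Nr4a3 among the members, which was not called. They come from RefSeq (build GRCm38.p6), are the 250 bases before the start, and read 5′ to 3′ on the gene's strand. They lie at chr4:48045055-48045304 on the plus strand (Nr4a3), chr15:101266596-101266845 plus (Nr4a1), chr1:191183334-191183583 minus (Atf3), chr10:80929841-80930090 plus (Gadd45b) and chr17:35821463-35821712 plus (Ier3). Capitals mark TGACG or its reverse complement CGTCA, the opening letters of the cyclic AMP response element bound by CREB and ATF factors, and the NF-kB site.
Nr4a3: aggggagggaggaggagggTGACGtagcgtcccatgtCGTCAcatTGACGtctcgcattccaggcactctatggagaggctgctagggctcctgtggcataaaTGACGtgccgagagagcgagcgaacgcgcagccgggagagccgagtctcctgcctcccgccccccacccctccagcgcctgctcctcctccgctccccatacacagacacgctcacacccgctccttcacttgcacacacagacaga
Nr4a1: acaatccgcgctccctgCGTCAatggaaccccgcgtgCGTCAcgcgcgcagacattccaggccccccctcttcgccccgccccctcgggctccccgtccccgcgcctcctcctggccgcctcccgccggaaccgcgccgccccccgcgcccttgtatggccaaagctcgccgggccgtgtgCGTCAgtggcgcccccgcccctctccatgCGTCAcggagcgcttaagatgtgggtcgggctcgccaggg
Atf3: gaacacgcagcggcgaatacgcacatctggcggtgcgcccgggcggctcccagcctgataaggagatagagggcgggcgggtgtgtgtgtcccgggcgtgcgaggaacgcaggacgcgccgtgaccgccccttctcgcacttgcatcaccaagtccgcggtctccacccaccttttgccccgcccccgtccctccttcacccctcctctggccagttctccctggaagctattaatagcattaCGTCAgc
Gadd45b: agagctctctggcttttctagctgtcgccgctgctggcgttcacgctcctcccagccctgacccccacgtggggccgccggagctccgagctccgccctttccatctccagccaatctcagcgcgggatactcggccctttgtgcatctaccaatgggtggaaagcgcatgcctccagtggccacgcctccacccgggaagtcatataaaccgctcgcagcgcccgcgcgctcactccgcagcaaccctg
Ier3: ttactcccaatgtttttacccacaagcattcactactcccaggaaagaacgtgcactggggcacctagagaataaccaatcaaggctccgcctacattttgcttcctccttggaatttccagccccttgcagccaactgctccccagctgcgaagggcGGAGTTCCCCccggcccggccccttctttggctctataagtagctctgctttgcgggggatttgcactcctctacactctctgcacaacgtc

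Of the 10 members, 9 had an entry among the 32851 promoter windows of this table, all but Egr1. TGACG occurred on either strand in 6 of the 9 (Fos, Fosb, Junb, Atf3, Nr4a1 and Nr4a3), against 17.8% of all windows. Nr4a3 and Nr4a1 held 4 copies each, although their levels across the libraries were unlike. The NF-kB site was in 3 of the 9 (Fos, Fosb and Ier3), against 7.25% of all windows. In Ier3 it begins 92 bases before the start, while the Gadd45b window held none of the motifs. No member's window held the AP-1 site TGANTCA (6.75% of windows), the full element TGACGTCA (1.55%, which also holds TGACG), the CArG box of the serum response factor (1.47%) or AAAGGTCA (1.34%), the site of Nr4a proteins. Both strands were searched, and a match describes letters in the window and not a bound site. Bases further upstream, and those of Egr1, were not searched. The members' windows had a median GC content of 65.2%, against 52.4% over all windows. The motif shares over all windows were not matched for GC content, so the part of GC content in the members' motif counts was not tested. Most members are also short genes: 9 of 10 were below the median gene length of 21488 bases, from Ier3 at 1199 bases upwards. Nr4a1, at 20894 bases, was just under that median, and Nr4a3 was above it at 41370 bases.

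Nr4a1, the second Nr4a receptor of the set, followed another order than Nr4a3. The conditional control samples held 10.4 and 10.1 FPKM of it and the aberrant-marker samples, which overlapped with them, 8.65 and 10.9 FPKM. The normal-marker samples held 0.153 and 0.239 FPKM and the wild-type samples 1.08 and 2.21 FPKM, while the germline knockout values (2.64e-23 and 3.44e-23 FPKM) were far under the worth of 1 read. Nr4a1 was thus near 10.2 FPKM in the conditional control and at 0.196 FPKM in the normal-marker knockout of the same line, a log2 difference of -3.23 that stayed under the floor of 20 FPKM. Its FPKM were divided over 4 overlapping transcripts, and it had the largest gap between the 2 samples of a group among the members, 0.62 log2 units in the wild type. The third family member, Nr4a2, was at 9.17 FPKM in the aberrant-marker knockout and near 0 elsewhere. Nr4a3 made up 89.3% of the summed Nr4a FPKM in the aberrant-marker library.

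The Gadd45 family also differed in makeup between libraries. Gadd45b was 86.6% of the summed Gadd45 FPKM for aberrant-marker and 35.0% for germline knockout macrophages, against 0% for the conditional control, 0.887% for the normal-marker knockout and 4.55% for the wild type. Gadd45a, which is induced by DNA damage and other stress, was called higher in both knockouts. Its levels were 51.0 FPKM (aberrant-marker), 29.7 FPKM (germline knockout) and 9.99 FPKM (conditional control), and it was listed at 0 in the normal-marker and wild-type libraries. Gadd45g, the third relative, ran the other way. Conditional control, normal-marker and wild-type libraries held 243, 294 and 167 FPKM of it, and it was at 75.4 FPKM in the aberrant-marker and 45.2 FPKM in the germline knockout, without being called.

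**Figure D3:**
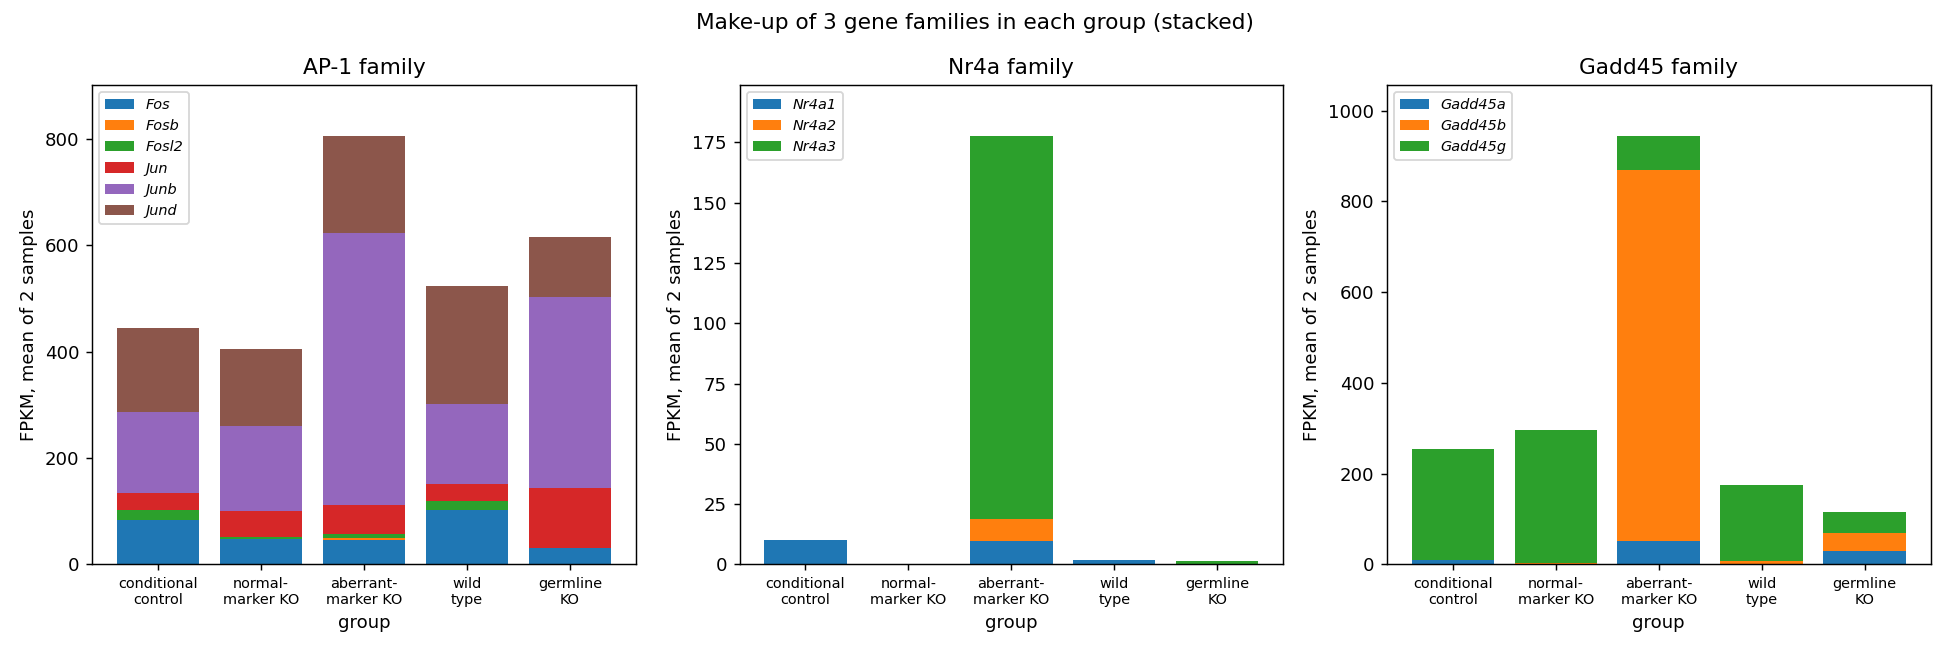
Stacked bars of mean FPKM (y axis) of the members of the AP-1, Nr4a and Gadd45 families in the 5 groups (x axis); Fosl1, at 0 in every group, is left out. Junb is 63.4% of the AP-1 sum of aberrant-marker and 58.5% of that of germline knockout macrophages, against 28.7% to 39.3% in the other 3 libraries, and Gadd45b replaces Gadd45g as the largest Gadd45 share in the aberrant-marker knockout.

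Of the Jun partners of AP-1, Jun and Junb were higher in both outlying knockout libraries without passing the 4-fold rule. Jund, another Jun partner, was at 182 FPKM in the aberrant-marker knockout against 159 FPKM in the conditional control. It was lower in the germline knockout, at 112 FPKM against 222 FPKM in the wild type, without being called. Junb, which often tempers transcription by Jun, was at 515 and 505 FPKM in the aberrant-marker and 362 and 357 FPKM in the germline knockout samples. Conditional control samples held 153 and 150.0 FPKM, normal-marker samples 157 and 161 FPKM and wild-type samples 153 and 147 FPKM, of which the conditional control and wild type overlapped. The ratio to the own control was 3.37-fold in the aberrant-marker and 2.39-fold in the germline knockout. Junb was among the higher-expressed genes of every library, between percentiles 94.1 and 98.3 of the compared genes.

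Jun, the founding AP-1 subunit and a target of JNK kinases, had its highest values in the germline knockout, at 111 and 113 FPKM. The aberrant-marker samples held 55.2 and 56.0 FPKM, the normal-marker samples 48.5 and 49.3 FPKM, and the conditional control (32.1 and 31.6 FPKM) and wild type (32.5 and 31.5 FPKM) overlapped. Jun was 3.50-fold above the wild type in the germline knockout and 1.75-fold above the conditional control in the aberrant-marker knockout, so its order of the 2 knockouts was the reverse of that of Junb.

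Fos, which needs a Jun partner to bind DNA, ran against Jun and Junb. The wild-type samples held the most Fos, 99.9 and 103 FPKM, followed by the conditional control samples with 80.5 and 84.7 FPKM. It was at 47.5 and 46.3 FPKM in the normal-marker samples and at 48.2 and 44.8 FPKM in the aberrant-marker samples, which overlapped, and lowest in the germline knockout at 31.9 and 27.8 FPKM. Fos was below its control in all 3 knockout libraries, by 1.73 log2 units in the germline, 0.82 in the aberrant-marker and 0.80 in the normal-marker knockout, and was called in none. The ratio of Fos to Jun FPKM was 2.59 in the conditional control and 3.17 in the wild type, and 0.960, 0.836 and 0.266 in the normal-marker, aberrant-marker and germline knockout libraries. As a share of the summed AP-1 FPKM, Fos held 18.6% and 19.4% in the 2 controls and 5.78% and 4.86% in the aberrant-marker and germline knockouts.

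Fosb and Egr1 stayed under the floor of 20 FPKM in every library and were not called. Fosb, a close relative of Fos, was at 2.81 and 2.98 FPKM in the aberrant-marker samples, with 1.34 and 1.16 FPKM for the wild type. Conditional control samples held 0.0329 and 0.0675 FPKM, and it was listed at 0 in the other 4 samples. Egr1, a zinc finger factor of the serum response, was highest in the normal-marker samples at 8.64 and 8.13 FPKM. Its values were 2.86 and 2.51 FPKM in the conditional control, 1.94 and 1.99 FPKM in the wild type, 0.581 and 0.445 FPKM in the aberrant-marker and 0 in both germline knockout samples. Egr1 groups did not overlap. Its relative Egr2 was expressed in every library, with 52.9 FPKM for conditional control, 27.9 for normal-marker, 53.0 for aberrant-marker, 23.4 for wild-type and 43.0 FPKM for germline knockout macrophages. Transcripts as scarce as Fosb may be missed altogether in a library made from 100 pg of RNA. Zeros also stood against higher values between the control libraries. Cd69 was at 30.6 FPKM in the conditional control and 0 in the wild type, and Gadd45a at 9.99 FPKM and 0. Whether the zeros and values near 0 of Gadd45a, Gadd45b and Nr4a1 were missed transcripts was not tested.

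**Figure D4:**
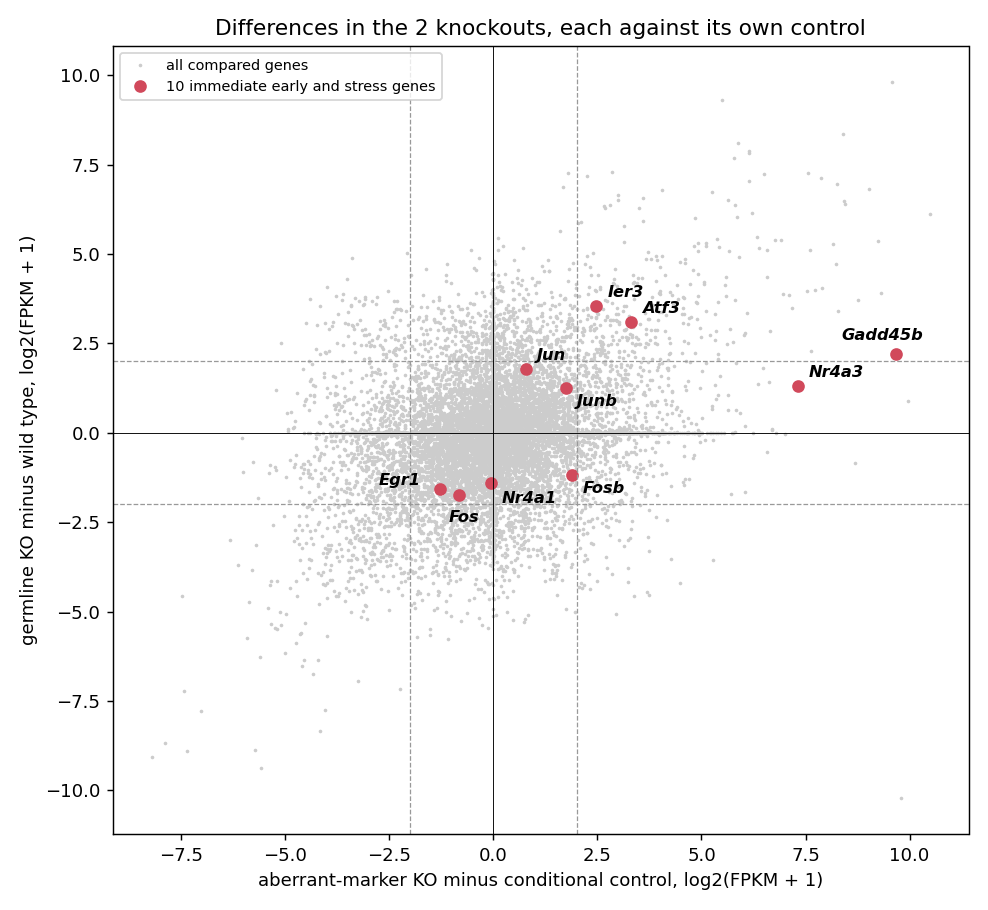
Log2 difference in the aberrant-marker knockout (x axis) against the log2 difference in the germline knockout (y axis), each from its own control, for all compared genes (grey) and the 10 members (red); dashed lines mark 4-fold. Atf3, Ier3 and Gadd45b lie past both upper lines, and Nr4a3 lies past the line of the aberrant-marker knockout alone.

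The aberrant-marker and normal-marker populations both came from conditional knockout mice and are distinguished in the series' description by their surface markers. Atf3 (5.47-fold), Gadd45b (311-fold) and Nr4a3 (log2 difference 7.29, from 0.0204 FPKM) were called higher in the aberrant-marker population, where 4.02% of genes were called higher and 3.26% lower. Ier3, which was called against the conditional control, was 1.41 log2 units higher and was not called. Fos differed by less than its spread between samples. Between the 2 control libraries, no member was called, where 0.935% of genes were higher in the wild type and 1.17% lower. Nr4a1 was lower in the wild type by 2.09 and Gadd45b higher by 3.16 log2 units, both under the floor. The comparisons of the aberrant-marker and normal-marker knockouts share the conditional control, and that of the 2 knockout populations shares the aberrant-marker library with one of them.

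Markers of other cells moved with the library in which Nr4a3 and Gadd45b were highest. Of 15 dendritic cell markers, 13 were at 1 FPKM or more in the aberrant-marker library, against 6 for conditional control, 6 for normal-marker, 4 for wild-type and 7 for germline knockout macrophages. Their summed level was 6017 FPKM there, and 35.9, 83.9, 70.4 and 340.0 FPKM in those 4 libraries in turn. Ccr7, the receptor that guides dendritic cells to lymph nodes, was at 1564 FPKM, Flt3 at 37.4 FPKM and Cd209a at 109 FPKM. In the germline knockout, Ccr7 was at 71.6 FPKM, Flt3 at 0.667 FPKM and Cd209a at 0.

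Of 18 T cell markers, 14 were at 1 FPKM or more in the aberrant-marker library and 1 or 2 in the others. Their summed level was 243 FPKM there, of which Cd2 held 45.7 FPKM. Elsewhere the sum was 24.9 to 456 FPKM, of which Cd2 held 24.9 to 455 FPKM. Cd3e (17.7 FPKM) and Cd3g (24.1 FPKM), parts of the T cell receptor complex, were at 0 in the other 4 libraries. Of 13 alveolar macrophage markers, 10 were at 1 FPKM or more in the aberrant-marker and germline knockout libraries and all 13 in the rest. Marco, a scavenger receptor of these cells, was at 0.258 FPKM in the aberrant-marker and 13.5 FPKM in the germline knockout, against 168 to 339 FPKM elsewhere. Of 11 markers of monocyte-derived and interstitial macrophages found, 8 were at 1 FPKM or more in both of these libraries, 6 for the conditional control, 5 for the normal-marker knockout and 2 for the wild type. Their sum was 1023 FPKM in the aberrant-marker knockout (268 in its control) and 548 FPKM in the germline knockout (336 in the wild type). Mrc1 and Cd14 of that list were lower than the own control in both. Mrc1 was at 36.3 against 167 FPKM in the aberrant-marker and 114 against 211 FPKM in the germline knockout. The part of these cells in the members' differences was not tested. In the germline knockout, where Atf3, Ier3 and Gadd45b were called, the dendritic cell markers Ccr7 (71.6 against 0.0333 FPKM in the wild type), Ccl22 (128 against 0.140 FPKM) and Cacnb3 (39.9 against 2.09 FPKM) were also higher, while Cd3e, Cd3g and Cd209a were at 0. Clec9a, also of the dendritic cell list, was at 0 there against 2.14 FPKM in the wild type. In the aberrant-marker library, Clec9a (0.620 against 1.90 FPKM) and Xcr1 (near 0 against 2.09 FPKM) were below the conditional control.

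**Figure D5:**
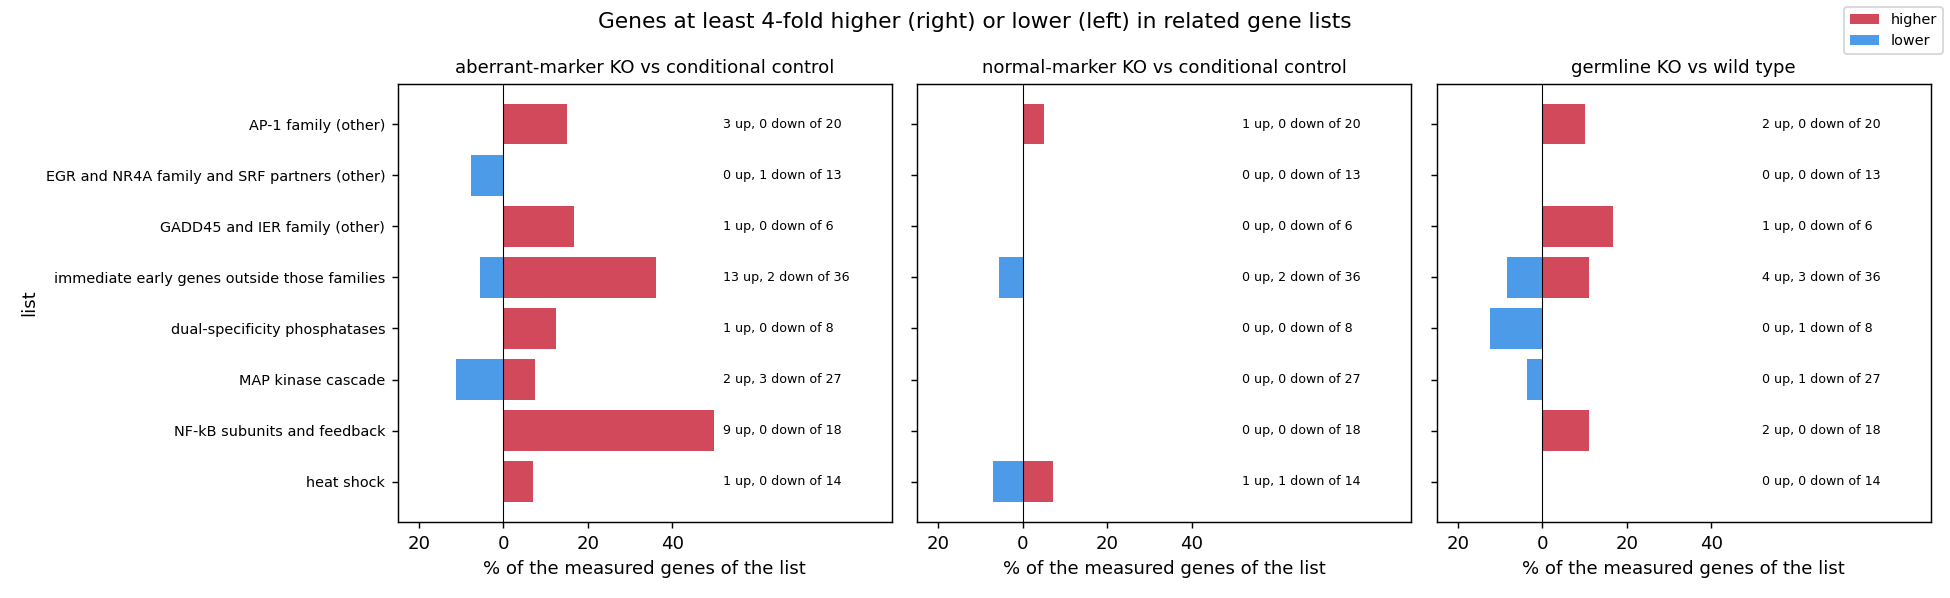
Bars give the percentage of genes in each of 8 related lists that were called higher (red, right of 0) or lower (blue, left of 0), among those that passed the filter, in the aberrant-marker, normal-marker and germline knockouts, each against its own control. The longest bar is that of the NF-kB list in the aberrant-marker knockout, with 9 of 18 genes called higher.

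Genes related to the members were taken from 8 lists, of which 157 of 160 genes were found and 142 passed the filter on low values. Over all compared genes, 4.09% were called higher and 3.76% lower in the aberrant-marker knockout. These shares were 2.73% and 3.36% in the germline knockout and 0.935% and 0.838% in the normal-marker knockout. Of 20 other AP-1 family genes that passed, 3 were called higher and 0 lower in the aberrant-marker knockout, 2 and 0 in the germline knockout and 1 and 0 in the normal-marker knockout, with medians of 1.06, 0.87 and -0.01 log2 units. Ddit3 (also CHOP), a factor of the integrated stress response that pairs with other leucine zipper proteins, was at 286 FPKM in the aberrant-marker and 145 FPKM in the germline knockout, against 14.4, 24.6 and 22.0 FPKM in conditional control, normal-marker and wild-type macrophages. It was called in both knockouts, as Atf3 was. Atf4, which drives Ddit3 and Atf3 transcription under that response, was called in the aberrant-marker knockout, at 313 FPKM against 39.8 FPKM in the conditional control. It was at 215 FPKM in the germline knockout and 82.6 FPKM in the wild type and was not called there. Batf3, which is itself one of the dendritic cell markers used here, was at 148 FPKM in the aberrant-marker and 8.06 FPKM in the conditional control. It was also the gene called higher in the normal-marker knockout, at 45.9 FPKM.

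Of 36 immediate early genes outside those families, 13 were called higher and 2 lower in the aberrant-marker knockout, with a median of 0.91 log2 units, and 4 higher and 3 lower in the germline knockout, with a median of -0.10. Rgs1, a brake on chemokine receptor signalling, was at 1034 FPKM in the aberrant-marker knockout and 0.0388 FPKM in the conditional control. Arc was at 102 FPKM there and at or under 0.0920 FPKM in all other libraries. Plk2, a stress-induced kinase, was called in both knockouts, at 150 FPKM in the aberrant-marker (1.54 FPKM in the conditional control) and 29.2 FPKM in the germline knockout (0 in the wild type). Socs3, the feedback inhibitor of cytokine receptors, was at 123 FPKM in the aberrant-marker and 116 FPKM in the germline knockout, against 15.9 and 5.40 FPKM in their controls. Ppp1r15a, also named Gadd34, which reverses the translation block of the integrated stress response, was at 40.8 and 41.9 FPKM in the 2 knockouts and listed at 0 in both controls. Klf10, a target of transforming growth factor beta, was called lower in both, at 27.0 FPKM against 131 in the aberrant-marker and 25.5 FPKM against 131 in the germline knockout. Tiparp was also called higher, and Cebpd and Rgs2 lower, in the germline knockout, and Myc lower in the aberrant-marker knockout. In the normal-marker knockout, 0 of the 36 were called higher and 2 lower (Cd69 and Nfil3).

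Of 18 NF-kB subunit and feedback genes, 9 passed upwards in aberrant-marker and 2 in germline knockout macrophages, with none lower in either and none called in the normal-marker knockout. The medians were 2.36, 0.78 and 0.13 log2 units in the aberrant-marker, germline and normal-marker knockouts. Relb, a subunit of the non-canonical pathway, was at 288 FPKM in the aberrant-marker knockout against 10.7 FPKM in the conditional control, and at 53.7 FPKM against 23.0 FPKM in the germline comparison. Traf1, a receptor adaptor induced by NF-kB, was at 211 FPKM in the aberrant-marker knockout and 0 in the conditional control. Tnip3, a feedback inhibitor, was called in both, at 84.4 FPKM in the aberrant-marker (0.0268 FPKM in the conditional control) and 36.9 FPKM in the germline knockout (0.0474 FPKM in the wild type). The other gene called in the germline knockout was Cflar, an inhibitor of death receptor signalling, at 55.2 FPKM against 10.3 FPKM. The summed level of the dendritic cell markers given above moved with this list, and the part of those markers in it was not tested.

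Of 27 MAP kinase cascade genes, 2 were called higher and 3 lower in the aberrant-marker knockout, and 0 and 1 in the germline knockout. Beside the shares over all genes given above, so few calls are not read as a result about this list or those that follow. Mapk14, the main p38 kinase, fell to 14.0 FPKM in the aberrant-marker knockout against 83.4 FPKM in the conditional control. Map3k14, the kinase of the non-canonical NF-kB pathway, rose to 44.7 FPKM from 1.40 FPKM there. Map3k1 was the other gene called higher there, and Map3k5 and Rps6ka4 the others called lower, while Rps6ka1 (7.79 FPKM against 70.2 FPKM) was lower in the germline knockout. Of 8 dual-specificity phosphatases, which switch MAP kinases off, Dusp2 (23.1 FPKM against 0) was called higher in the aberrant-marker and Dusp5 (0 against 24.3 FPKM) lower in the germline knockout. Of 14 heat shock genes, Hsf1, the heat shock factor itself, was called higher in the aberrant-marker (27.9 FPKM) and normal-marker (21.4 FPKM) knockouts against 2.78 FPKM in the conditional control. The chaperone Hspa1a was called lower in the normal-marker knockout (near 0 against 26.3 FPKM), and none was called in the germline knockout. Of 13 other EGR, NR4A and SRF partner genes, Nab2, a corepressor of Egr proteins, was called lower in the aberrant-marker knockout (5.79 FPKM against 31.9 FPKM) and none in the other 2. Of 6 other GADD45 and IER genes, Gadd45a was the 1 called higher in the aberrant-marker and germline knockouts, and 0 were lower.

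The genes with the pattern most like each member were ranked among 5317 candidate genes. The measure was the root mean square difference of centred log2(FPKM + 1) over the 5 group means. For Nr4a3 they were Grasp (0.29), Serpinb6b (0.38) and Flrt3 (0.39). For Gadd45b they were Cacnb3 (0.77), a dendritic cell marker of the list used here, Rgs1 (0.85) and Tnfrsf4 (1.00), all further away than those of Nr4a3. Junb was nearest to Jdp2 (0.10), another AP-1 family gene, and Jun to Rpf2 (0.11). Atf3 was nearest to Gtpbp6 (0.20), Ier3 to Trmt10c (0.49) and Fos to Gcnt1 (0.09). These distances are descriptions over 5 libraries.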

How the data were processed

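Alveolar macrophage RNA from 5 groups, each with 2 samples, was sequenced. According to the labels' protocols, 100 pg of RNA per sample was amplified (SMARTer Ultra Low, 18 PCR cycles), sheared and built into Ovation Ultralow libraries without molecular identifiers or strand. The deposited table holds FPKM made by the authors for 45913 RefSeq transcripts. The submitters' processing notes list the tools Bowtie 1.1.2 and eXpress 1.5.1 without saying what each did, and the genome build is not given in the sources used here. Columns matched sample titles, and 0 were left out.

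FPKM were summed per Entrez gene (26173 genes) with pandas 2.3.3. The 11336 genes that reached 1 FPKM in 2 or more samples were compared, on log2(FPKM + 1), so folds of low genes are understated there. Ratios in the text are of mean FPKM. The samples of a group were averaged to 1 library and no p-value was computed, and the size rule given with the results was used. Depth was inferred from the smallest values and annotated lengths, and is approximate. The size rule was tested on simulated data that held noise between samples of a group alone, so that test does not cover the spread between mice. Text names all members, and of each related list at most the 4 largest called genes per direction. Egr2, Nr4a2, Jund and the Gadd45 relatives were named as family members, and Zfp36 after its values were seen. The members, lists and rules were chosen with earlier results of these data known. Alternatives covered the pseudocount, floor, fold, filter, scaling, transcript choice and each sample left out. One list gene that the rule names is not reported here.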

Additional observations from a re-analysis of the deposited data

Results flagged for a closer look

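Fosb was above its control in both aberrant-marker samples and below it in both germline knockout samples, so that the 2 effects were 3.06 log2 units apart. Egr1 was above its control in both normal-marker samples and below it in both germline knockout samples, with effects 2.92 log2 units apart. Neither difference was tested, since each effect rests on 1 library per group, and neither gene reached 20 FPKM in any library.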

How the results depend on the processing

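With 1 library per group, no alternative measures the spread between mice. No paired analysis was possible because the sample numbers are not shared between groups. Leaving out each sample in turn gave the same member counts as above, 4 to 4 higher in the aberrant-marker and 3 to 3 in the germline knockout. This was largely set by the rule, which already asks for the difference at every choice of 1 sample per group. Without a sample, a call could be lost only through the floor. No called member difference changed sign; of 700 member values, 10 changed sign, all of which lay within 0.06 log2 units of 0 before and within 0.09 after (Nr4a1 in the aberrant-marker knockout, from -0.06 to 0.09). At 2-fold, Junb was also higher in the aberrant-marker knockout, 1 member (Ier3) was higher in the normal-marker knockout, 5 were higher (Jun and Junb added) and 1 lower (Fos) in the germline knockout, and 5 were higher (Junb and Ier3 added) in the aberrant-marker than in the normal-marker population. With a floor of 5 FPKM, 1 member (Nr4a1) was lower in the normal-marker knockout, 1 (Egr1) lower and Nr4a1 higher in the aberrant-marker than in the normal-marker population, and 1 (Gadd45b) higher in the wild type than in the conditional control. With a pseudocount of 10, Ier3 in the aberrant-marker (1.93) and Gadd45b in the germline knockout (1.49) were not called; Gadd45b also lost that call with a floor of 50 FPKM, at 8-fold and with equal totals (2.13). At 8-fold, Ier3 in the aberrant-marker knockout and Atf3 against the normal-marker population were not called either. Counts of all called genes, in the order aberrant-marker, normal-marker and germline knockout, aberrant-marker against normal-marker and wild type against conditional control, were 890, 201, 691, 825 and 239. They became 391, 38, 254, 363 and 29 with a pseudocount of 10, 2180, 1064, 1926, 2165 and 1198 with a floor of 5 FPKM, 403, 45, 273, 402 and 35 with a floor of 50 FPKM, 2010, 837, 1713, 1979 and 902 at 2-fold, and 497, 82, 356, 444 and 88 at 8-fold, by construction of the rule.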

Other observations

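The 10 members summed to 1812 FPKM in the aberrant-marker library and 976 FPKM in the germline knockout, against 305 FPKM in the conditional control, 319 FPKM in the normal-marker knockout and 335 FPKM in the wild type. Zfp36, which destabilises transcripts with AU-rich elements, was at 355 FPKM in the aberrant-marker library and 91.5, 67.6, 24.3 and 18.8 FPKM in the wild type, germline knockout, conditional control and normal-marker knockout. Cd69, an early activation antigen, was at 30.6 FPKM in the conditional control, 46.6 FPKM in the aberrant-marker and 17.3 FPKM in the germline knockout, and listed at 0 in the normal-marker and wild-type libraries. Of the genes called higher in the aberrant-marker knockout, 108 were also called higher in the germline knockout, 23.3% of the first list and 34.8% of the second, and Atf3, Ier3 and Gadd45b were among them.

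Nr4a1 in the conditional control was divided differently over its transcripts in the 2 samples, although the gene total was nearly equal (10.4 and 10.1 FPKM): 1 transcript was at 1.60 FPKM in 1 sample and 0.225 FPKM in the other.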
